A study of Mus musculus with 4 samples.

Results

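Eicosanoids are short-range lipid signals made from arachidonic acid, and the transcripts of 10 genes of their synthesis were examined here in cultured mouse cells: Pla2g4a, Alox5ap, Alox5, Ltc4s, Alox15, Ptgs1, Ptgs2, Hpgds, Ptges and Tbxas1. The genes were chosen by name, as enzymes and helper proteins of this route, and all 10 were found, 1 row each, among the 55401 genes of the deposited table. The cells are labelled as female germline stem cells from the ovary of C57BL/6 mice, in a condition labelled normal. All cultures shared a MEM-alpha medium with fetal bovine serum and, as added factors, mouse EGF, bFGF, GDNF and LIF. There were 2 libraries of cells given the solvent DMSO and 2 of cells given daidzein, an isoflavone of soybean and a weak ligand of oestrogen receptors. No source used here gives the dose, the duration, the age of the mice or the origin of the replicates. The p-values therefore measure the spread between these 4 samples, and that spread may be technical.

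In this route a phospholipase first frees arachidonic acid from membranes. Lipoxygenases, helped by an activating protein in the nuclear membrane, turn it into leukotrienes, while cyclooxygenases turn it into prostaglandin H, from which terminal synthases make the prostaglandins and thromboxane. Leukotrienes are known above all from white blood cells, mast cells included, and prostaglandins act in the ovary in ovulation and in regression of the corpus luteum.

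The 10 transcripts ranged from abundant to nearly silent, and the nearly silent genes sat at steps of both arms. Alox5ap, Pla2g4a and Ptgs1 were well expressed in all 4 libraries and Ltc4s was low. Alox5, Alox15, Ptgs2, Ptges and Tbxas1 had at most 5 reads in any library, and Hpgds at most 12. None of the members with enough reads to test differed between daidzein and DMSO past the threshold.

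The contrast at the cyclooxygenase step and the near silence of Alox5 are the reason for showing the start regions of 4 members, as far as the RefSeq promoter table on GRCm38.p6 holds them. That table had an entry for 8 of the 10 members, but none for Alox5ap and Alox15. Each window runs from 250 bases before the start site to 50 after it, written 5′ to 3′ on the strand of the gene, and in these 4 genes the start site is also the gene's first base in the deposited table. Pla2g4a lies at chr1:149961241-149961540 on the minus strand, Ptgs2 at chr1:150099781-150100080 on the plus strand, Ptgs1 at chr2:36230176-36230475 on the plus strand and Alox5 at chr6:116461129-116461428 on the minus strand. Capitals mark matches, on either strand, to any of 7 short motifs. The letters searched for a TATA box were TATAAA, while those for a GC box, which Sp1 can bind, were GGGCGG. For a cAMP response half-site the search used CGTCA, and for an AP-1 site of Fos and Jun proteins it used TGANTCA. The remaining searches were for a GATA factor site spelled GATAA, for an Ets factor site spelled GGAAGT, and for an E-box spelled CACGTG.
Pla2g4a: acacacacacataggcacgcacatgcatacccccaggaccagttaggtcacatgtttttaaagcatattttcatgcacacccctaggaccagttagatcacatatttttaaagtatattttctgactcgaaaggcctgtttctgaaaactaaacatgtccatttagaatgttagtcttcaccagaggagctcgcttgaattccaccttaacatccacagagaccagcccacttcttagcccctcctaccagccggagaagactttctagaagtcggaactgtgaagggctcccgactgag
Ptgs2: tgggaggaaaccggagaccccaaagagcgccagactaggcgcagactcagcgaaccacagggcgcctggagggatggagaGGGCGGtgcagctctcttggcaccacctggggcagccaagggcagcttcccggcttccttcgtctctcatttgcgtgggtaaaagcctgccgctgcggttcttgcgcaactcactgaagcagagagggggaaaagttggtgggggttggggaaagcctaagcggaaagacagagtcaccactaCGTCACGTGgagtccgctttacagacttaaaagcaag
Ptgs1: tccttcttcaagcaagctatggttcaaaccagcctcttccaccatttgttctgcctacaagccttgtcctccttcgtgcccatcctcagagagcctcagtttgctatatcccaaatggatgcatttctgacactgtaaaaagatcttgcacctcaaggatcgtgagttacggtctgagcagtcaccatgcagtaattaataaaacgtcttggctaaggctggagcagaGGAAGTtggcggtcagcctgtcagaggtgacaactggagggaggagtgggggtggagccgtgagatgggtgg
Alox5: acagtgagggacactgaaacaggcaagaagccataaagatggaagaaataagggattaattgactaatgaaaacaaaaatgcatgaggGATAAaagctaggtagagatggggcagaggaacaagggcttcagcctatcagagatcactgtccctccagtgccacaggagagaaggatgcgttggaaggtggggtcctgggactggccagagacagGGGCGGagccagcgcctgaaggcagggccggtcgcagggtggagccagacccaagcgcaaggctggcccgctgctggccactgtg

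The windows of the 2 cyclooxygenase genes shared none of these motifs. The Ptgs2 window held a GC box, found in 35.7% of 32851 RefSeq promoter windows of this length, a cAMP response half-site, found in 20.8%, and an E-box, found in 7.15%. The last 2 overlap and lie just after the annotated start site, and where transcription starts in these cells was not measured. The Ptgs2 window also held 16 CG pairs, against 6 in the Ptgs1 window and a median of 7 over all windows. The windows of other members low in reads held 10 (Ptges), 7 (Alox5), 5 (Hpgds) and 4 (Tbxas1). Those of Ltc4s and the printed Pla2g4a window held 6 each. The Ptgs1 window held 1 match, an Ets site, which 23.8% of all windows hold. The Alox5 window held a GC box and a GATA site (25.4% of all windows), and the printed Pla2g4a window held no match. The table has a second entry for Pla2g4a, at chr1:149922390-149922689 inside the gene, which is not printed and held 5 matches: a TATA box, 2 GATA sites and 2 Ets sites. These are matches of letters only. Binding of factors was not measured in this series.

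The label of the cells was also compared with marker genes. Of 12 listed germ cell markers, 9 had at most 3 reads over all 4 libraries together, and 5 had 0, among them the pluripotency factor Pou5f1. Zbtb16, which blood cells also use, was the only germ cell marker with enough reads to test, and the summed level of that list was 4.70 to 5.65 CPM (counts scaled to the library size, adjusted by TMM) with DMSO and 4.27 to 4.78 with daidzein. The mast cell list, led by Kit, Cpa3 and Gata2, summed to 2830 to 2926 CPM with DMSO and 2827 to 2909 with daidzein. However, 5 of its 13 genes in the table had 0 reads (Fcer1a, Mcpt4, Tpsb2, Tpsab1 and Mrgprb2). Cma1 had 4 reads and Hdc 9 over all 4 libraries together. The macrophage and monocyte list summed to 150 to 151 CPM with DMSO and 138 to 144 with daidzein. Most of this came from Adgre1 (117 to 131 CPM), while Cd14, Itgam and Ly6c2 had 0 reads. The platelet list summed to 235 to 254 CPM with DMSO and 230 to 234 with daidzein. Here Itga2b gave most of the sum (206 to 230 CPM), and Gp9 had 0 reads. The eosinophil, neutrophil, lymphocyte, epithelial, and granulosa and stroma lists summed to at most 2.68 CPM in every library. No marker of any list passed edgeR's test between the groups. Whether cells of other types bear on the eicosanoid values was not tested. Library totals ran from 16230400 to 18537134 counts, so that 0 reads in 1 library allows up to 3 counts, or 0.162 to 0.185 CPM. In bulk samples of this kind, fewer cells of a type and less RNA per cell cannot be told apart.

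Pla2g4a encodes cytosolic phospholipase A, the enzyme that frees arachidonic acid. It lies on GRCm38 chromosome 1 from 149829618 to 149961290, and its FPKM, a level per kilobase of exon and per library size, was 19.2 and 21.3 with DMSO, and 21.7 and 21.5 with daidzein. The reads behind it were 1992 and 2333 with DMSO and 2381 and 2541 with daidzein. DMSO replicate 1 was the lowest, the other 3 libraries lay close together, and the groups did not overlap. The fold of daidzein over DMSO was 1.06 (95% interval 0.969 to 1.17), with an adjusted p of 1.00 in edgeR's quasi-likelihood test. By mean FPKM, 75.2% of the 11700 genes tested stood lower. Pla2g4a and Ptgs2 are neighbours placed head to head, 138740 bases apart, and the 3 annotated genes between them, none of them protein-coding, had 0 reads in all libraries. An abundant and a nearly silent member thus lie side by side.

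**Figure D1:**
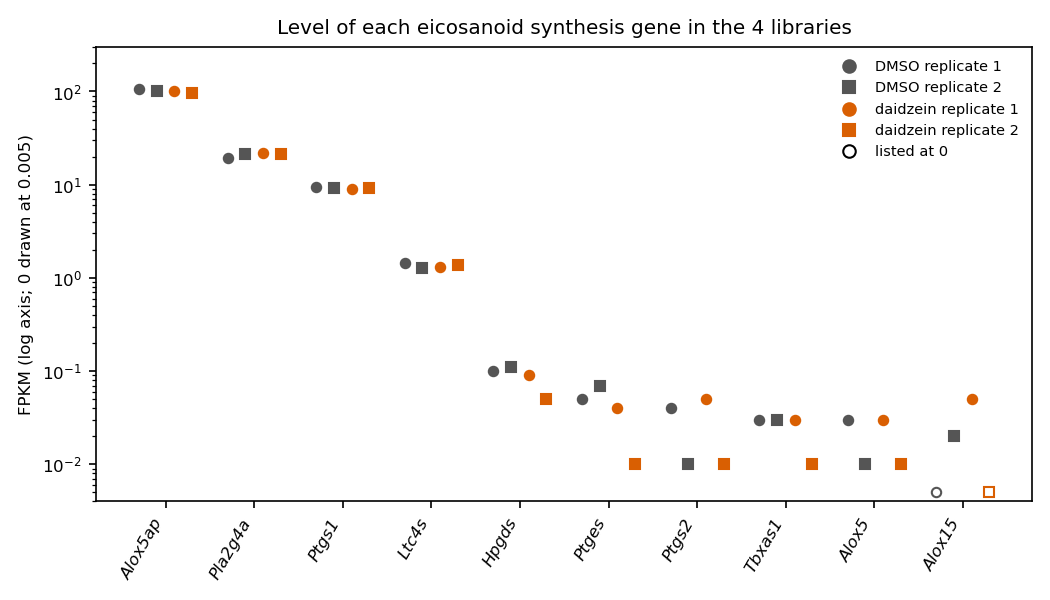
FPKM of each of the 10 genes (log axis) in DMSO replicates 1 and 2 (grey) and daidzein replicates 1 and 2 (orange), ordered by mean level, with values of 0 drawn as open symbols at the bottom. Alox5ap, Pla2g4a, Ptgs1 and Ltc4s stand above 1 FPKM in every library, and the other genes at or below 0.11 FPKM.

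Alox5ap was the most abundant of the 10 genes. It encodes the five-lipoxygenase activating protein, a small membrane protein that presents arachidonic acid to the lipoxygenase encoded by Alox5, and lies on GRCm38 chromosome 5 from 149264767 to 149288153, plus strand. Its level was 105 and 100.0 FPKM with DMSO and 102 and 95.6 FPKM with daidzein, from 2426, 2431, 2496 and 2516 reads. The groups overlapped, and the lowest value belonged to daidzein replicate 2. The fold was 0.964 (95% interval 0.879 to 1.06), with an edgeR adjusted p of 1.00. By mean FPKM it ranked 603 from the top among the 11700 genes tested.

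Alox5, the lipoxygenase that this protein serves, was close to silent. The gene (GRCm38 chromosome 6, 116410077 to 116461178, minus strand) yielded 2 and 1 reads with DMSO, and again 2 and 1 with daidzein. Over the 4 libraries together this is 0.0869 CPM, with an exact 95% Poisson interval (counting error alone) of 0.0319 to 0.189. Per length, the reads of Alox5ap exceeded those of Alox5 4756-fold, with an exact 95% binomial interval of 2184 to 12963 for counting error only. The helper was thus abundant where its enzyme was barely detected.

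Ltc4s encodes leukotriene C synthase, which joins glutathione to leukotriene A and belongs to the same membrane protein family as the activating protein. The gene (GRCm38 chromosome 11, 50236461 to 50238616, minus strand) stood at 1.46 and 1.27 FPKM with DMSO and 1.32 and 1.38 with daidzein, from 24, 22, 23 and 26 reads. The groups overlapped and the fold was 0.993, with a wide 95% interval of 0.588 to 1.68 and an edgeR adjusted p of 1.00. An antisense gene on the opposite strand, Gm26542, overlaps it and had 14 to 25 reads per library. No source used here gives the strand setting of the counting, so how reads in the overlap of Ltc4s and Gm26542 were assigned is not known.

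Alox15, on GRCm38 chromosome 11 from 70344152 to 70352031, encodes a lipoxygenase that acts at other carbons of arachidonic acid. It had 0 and 1 reads with DMSO and 2 and 0 with daidzein. Alox12, Alox12b and Alox12e had 0 reads in every library, and Alox8 and Aloxe3 had at most 1 and 6. No lipoxygenase listed here therefore had enough reads to test.

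Of the 2 cyclooxygenase genes, Ptgs1 gave nearly all of the reads. Ptgs1 encodes the constitutive cyclooxygenase and lies on GRCm38 chromosome 2 from 36230426 to 36252272, plus strand. Its level was 9.41 and 9.23 FPKM with DMSO and 9.03 and 9.26 FPKM with daidzein, from 593, 614, 603 and 667 reads. The 4 values lay close together and the groups overlapped. The fold was 0.982 (95% interval 0.867 to 1.11), with an edgeR adjusted p of 1.00.

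Ptgs2, the inducible cyclooxygenase that growth factors and inflammatory signals switch on in many cells, had 3 and 1 reads with DMSO and 4 and 1 with daidzein. It lies on GRCm38 chromosome 1 from 150100031 to 150108227, plus strand. In both groups replicate 1 had more reads than replicate 2, and the groups overlapped. Per length, Ptgs1 had 325 times the reads of Ptgs2, with an exact binomial 95% interval of 171 to 711. Per depth, the ratio of daidzein to DMSO reads of Ptgs2 was 1.17, with an exact binomial 95% interval of 0.251 to 5.88. Both intervals cover counting error only. A difference of several-fold in Ptgs2 was not detectable at this depth.

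The terminal synthases in the set were low or nearly absent. Hpgds, the haematopoietic prostaglandin D synthase, lies on GRCm38 chromosome 6 from 65117293 to 65144908, minus strand, and had 10 and 12 reads with DMSO and 10 and 6 with daidzein. The daidzein libraries lay below the DMSO libraries in CPM, and the gene passed the filter on low counts through the DMSO libraries only. Its fold was 0.684 with a 95% interval of 0.301 to 1.56 and an edgeR adjusted p of 1.00. The log2 difference, -0.55, was -0.17 without daidzein replicate 2, -0.45 without DMSO replicate 2 and -1.02 without daidzein replicate 1.

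Ptges (GRCm38 chromosome 2, 30889471 to 30929863, minus strand) is the inducible prostaglandin E synthase. It had 3 and 5 reads with DMSO and 3 and 1 with daidzein. Per depth the ratio was 0.467, with an exact binomial interval of 0.103 to 1.74. Tbxas1, the thromboxane A synthase (GRCm38 chromosome 6, 38875404 to 39084585, plus strand), had 5 and 5 reads with DMSO and 5 and 2 with daidzein, a ratio of 0.653 (0.211 to 1.90). The start of Hipk2, a protein-coding gene on the opposite strand with 422 to 610 reads per library, overlaps the annotated start of Tbxas1. An antisense gene on the opposite strand, Gm42962, also overlaps Tbxas1 and had 1 to 3 reads per library. Without a stated strand setting, how reads in these overlaps were assigned is not known. For Alox5 the ratio was 0.933 (0.125 to 6.97) and for Alox15 1.87 (0.0972 to 110). These intervals, as that of Ptgs2, cover counting error only and not the spread between libraries. All of them include 1, and none of the 5 genes could be tested.

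**Figure D2:**
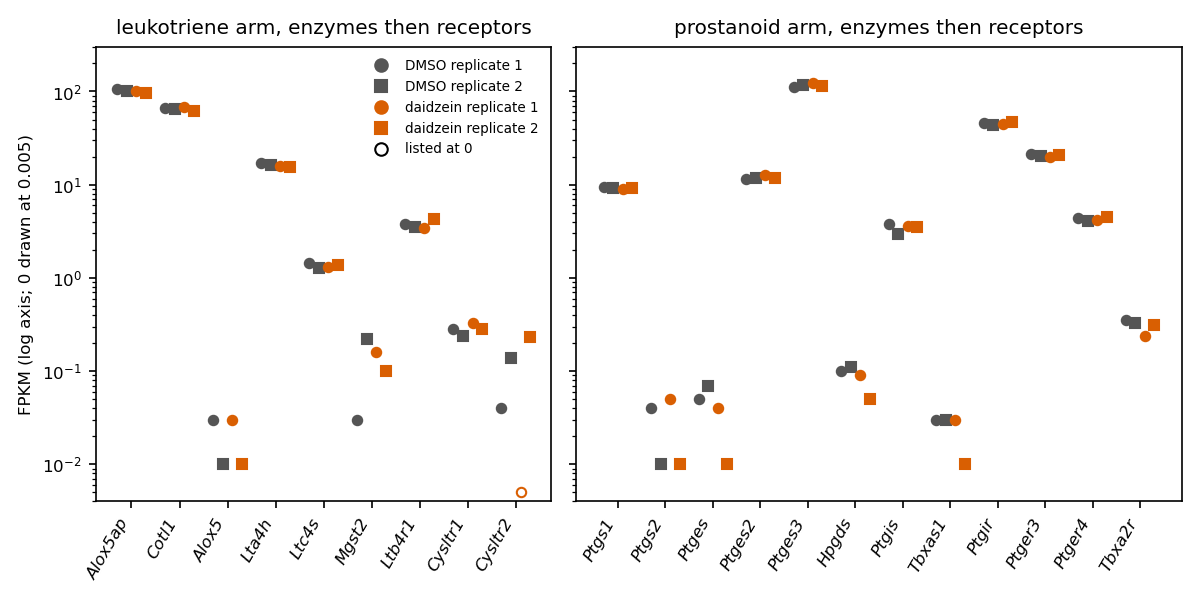
FPKM (log axis) of genes of the leukotriene arm (left) and the prostanoid arm (right), enzymes and helpers first and receptors last, in each of the 4 libraries, with values of 0 drawn as open symbols. Alox5 stands below 0.1 FPKM between neighbours above 10 FPKM, and Ptgs2, Ptges, Hpgds and Tbxas1 lie near the bottom while Ptges3, Ptgir and Ptger3 stand at 20 FPKM or more on average.

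Ordered by mean FPKM, the genes ran from Alox5ap over Pla2g4a, Ptgs1, Ltc4s, Hpgds, Ptges, Ptgs2, Tbxas1 and Alox5 to Alox15. The ranges over the 4 libraries did not overlap for the first 4 pairs of neighbours. The mean of Alox5ap was 4.82 times that of Pla2g4a, Pla2g4a 2.26 times Ptgs1, Ptgs1 6.80 times Ltc4s, and Ltc4s 15.5 times Hpgds. From Hpgds downward the ranges of all neighbours overlapped, so no step between neighbours among the last 6 genes exceeds their spread. Genes further apart in that order can still differ: Hpgds, at 0.05 to 0.11 FPKM, lay above Tbxas1 and Alox5, each at 0.01 to 0.03. Per length, the reads of Hpgds were 3.16 times those of Tbxas1, with an exact binomial 95% interval of 1.74 to 5.98 for counting error only. The tested genes most like Alox5ap in level over the 4 libraries were Ube2c, Hars and Erh, with root mean square differences of 0.022, 0.023 and 0.027 in log2(FPKM + 1). With daidzein replicate 2 left out, 0 of these 3 stayed among the closest 3.

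All 10 are annotated as protein-coding, and they lie on 5 chromosomes. The deposited annotation places 6 of them in the endoplasmic reticulum (Alox5ap, Ltc4s, Pla2g4a, Ptgs1, Ptgs2 and Tbxas1), a term that 618 of the 19575 genes with a read carry. Leukotriene synthesis is annotated to 4 members and to 15 genes with a read in all. The transcripts of the members had no match of at least 95% identity over at least 50% of their length in any other gene of GENCODE M21.

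Between the groups, 5 members had enough reads to test and 0 rose or fell, where 0.0171% of all 11700 genes tested were called (2 genes, Fos and Fosb, named after their values were seen, both lower with daidzein). At an unadjusted edgeR p under 0.05 in the main fit of all 4 libraries there were also 0 members, against 2.91% of all genes tested. DESeq2 and limma called 0 members too. Hpgds passed the filter only through the group where it was higher, so the tested members are not a neutral sample. Of the 5, Pla2g4a lay higher with daidzein and Hpgds lower without overlap between groups, where 29.7% of all genes tested had groups that did not overlap. The median log2 difference of the 5 was -0.027, and that of all genes tested was -0.0027. For Alox5ap, Pla2g4a and Ptgs1 the 95% intervals of the fold lay between 0.867 and 1.17, whereas those of Ltc4s and Hpgds span changes of well over 1.5-fold.

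**Figure D3:**
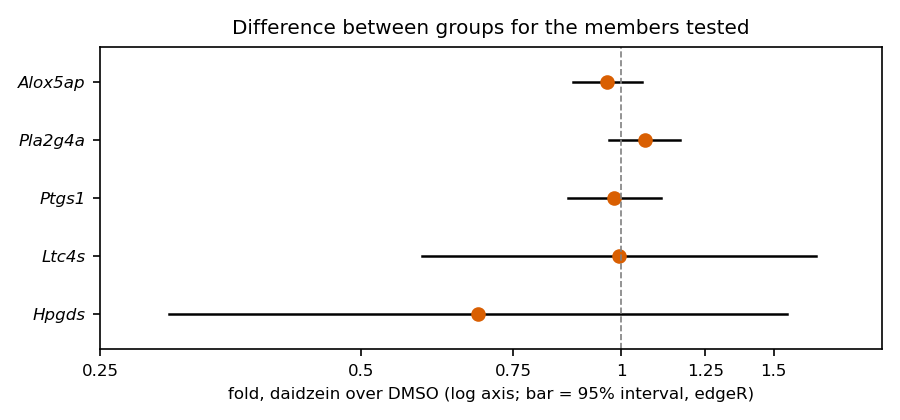
Fold of daidzein over DMSO (log axis) for the 5 genes with enough reads to test, with 95% intervals from edgeR as bars and a dashed line at 1. All intervals cross 1, and they are narrow for Alox5ap, Pla2g4a and Ptgs1 and wide for Ltc4s and Hpgds.

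Other genes of the route were read from a list of 74 symbols, of which 72 were in the table, 37 had enough reads to test and 19 had 0 reads in all libraries. None of the 37 rose or fell by edgeR, DESeq2 or limma. At an unadjusted edgeR p under 0.05, 0 were higher and 3 lower with daidzein, where 1.29% of all genes tested were higher and 1.62% lower. Ptger1, among these 3 and with the lowest fold, passed the filter on low counts only through the DMSO libraries, where it was higher. The counts of lower genes given here are therefore not neutral. Folds lay between 0.279 and 1.19, with 15 above and 22 below 1, where 51.3% of all genes tested were below. Without overlap between groups, 9 of the 37 lay lower and 2 higher with daidzein, against 15.0% and 14.7% of all genes tested. Near-identical copies were not searched for these genes.

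Among genes of substrate release and remodelling, 13 of 18 were tested. Acsl5, which activates fatty acids, stood at 41.8 FPKM on average, and Lpcat3, which puts arachidonic acid back into phospholipids, at 38.1. Pla2g12a, a secreted phospholipase, stood at 23.8 and Lpcat2, a second acyltransferase, at 15.1. Their folds were 1.03, 1.03, 0.954 and 0.994. Pla2g5, a further secreted phospholipase named after its values were seen, had 17 and 24 reads with DMSO and 13 and 9 with daidzein. Its fold was 0.505 (95% interval 0.260 to 0.980), with an unadjusted p of 0.0439 and an adjusted p of 1.00 by edgeR. Anxa1, known to restrain phospholipase, had 36 and 44 reads with DMSO and 26 and 27 with daidzein, a fold of 0.620 (0.395 to 0.973) with an unadjusted p of 0.0388 and an adjusted p of 1.00 by edgeR. Anxa2, of the same family, stood at 24.9 FPKM with a fold of 0.993. In Pla2g5 and Anxa1 the daidzein libraries lay below the DMSO libraries, at low counts, as they did in 15.0% of all genes tested.

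In the leukotriene arm, 5 of 12 listed genes were tested and 3 had 0 reads. Lta4h, the hydrolase that makes leukotriene B, had 17.0 and 16.1 FPKM with DMSO and 15.8 and 15.3 with daidzein, a fold of 0.940 (95% interval 0.854 to 1.03). Cotl1, whose product binds the lipoxygenase, stood at 65.3 FPKM on average, the exporter Abcc1 at 6.08, and Mgst3, a membrane glutathione transferase, at 4.94. Their folds were 0.989, 0.927 and 1.01. Mgst2, which can also make leukotriene C and was named after its values were seen, had 2 and 14 reads with DMSO and 10 and 7 with daidzein and was not tested. The genes for the enzymes that act after leukotriene C, also named after their values were seen, were nearly silent: Ggt1 had 27 reads and Ggt5 10 over all 4 libraries together, and Dpep1 and Dpep2 had 0. Of the listed cytochromes, which inactivate leukotriene B, Cyp4f14 had 0 reads and Cyp4f18 stood at 1.31 FPKM with a fold of 0.837.

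In the prostanoid arm, synthases other than those among the 10 genes were expressed. Ptges3, a co-chaperone that also acts as a prostaglandin E synthase, had 113 and 116 FPKM with DMSO and 124 and 115 with daidzein, a fold of 1.04 (95% interval 0.961 to 1.13). The glutathione peroxidase genes Gpx1 and Gpx4, which reduce peroxides, stood at 461 and 74.7 FPKM on average, and the aldose reductase Akr1b3 at 27.0. Their folds were 0.963, 0.976 and 1.01. Ptges2 and the prostacyclin synthase Ptgis, named after their values were seen, stood at 11.9 and 3.47 FPKM with folds of 1.05 and 1.06. Ptgds, the other prostaglandin D synthase, had 0 reads in every library. Of the breakdown and transport genes, Ptgr1 stood at 15.0 FPKM, Zadh2 at 11.6, the exporter Abcc4 at 10.3 and Ptgr2 at 5.17, while Hpgd, which starts prostaglandin breakdown, and the uptake carrier Slco2a1 had 0 reads.

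Among the 9 prostanoid receptor genes listed, Ptgir and Ptger3 were well expressed. Ptger4 came next, at a level above 38.5% of the genes tested. Ptgir, the prostacyclin receptor, had 46.0 and 43.8 FPKM with DMSO and 44.9 and 46.6 with daidzein, a fold of 1.02 (95% interval 0.934 to 1.11). Ptger3 and Ptger4, receptors of prostaglandin E, stood at 20.5 and 4.27 FPKM on average, with folds of 0.977 and 1.02. Ptger1, another receptor of prostaglandin E, had 13 and 11 reads with DMSO and 1 and 6 with daidzein. Its fold was 0.279 (0.101 to 0.772), with an unadjusted p of 0.0167 and an adjusted p of 1.00 by edgeR, and like Hpgds it passed the filter through the DMSO libraries only. The thromboxane receptor Tbxa2r had 8 to 11 reads per library. Ptgdr2, a prostaglandin D receptor, had 2 and 3 reads with DMSO and 10 and 6 with daidzein and was not tested. Its daidzein libraries lay above its DMSO libraries, which held for 14.7% of all genes tested. Ptger2, Ptgdr and Ptgfr had 0 reads in every library.

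Among leukotriene receptors, Ltb4r1 stood at 3.74 FPKM on average, with a fold of 1.07 (95% interval 0.807 to 1.42). Cysltr1, a receptor of leukotrienes that carry cysteine, had 23 and 21 reads with DMSO and 29 and 27 with daidzein, a fold of 1.19 (0.708 to 1.99). Cysltr2 had 2 and 7 reads with DMSO and 0 and 12 with daidzein and was not tested. The daidzein libraries lay above the DMSO libraries for Cysltr1, as for 14.7% of all genes tested, and on both sides of them for Cysltr2.

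**Figure D4:**
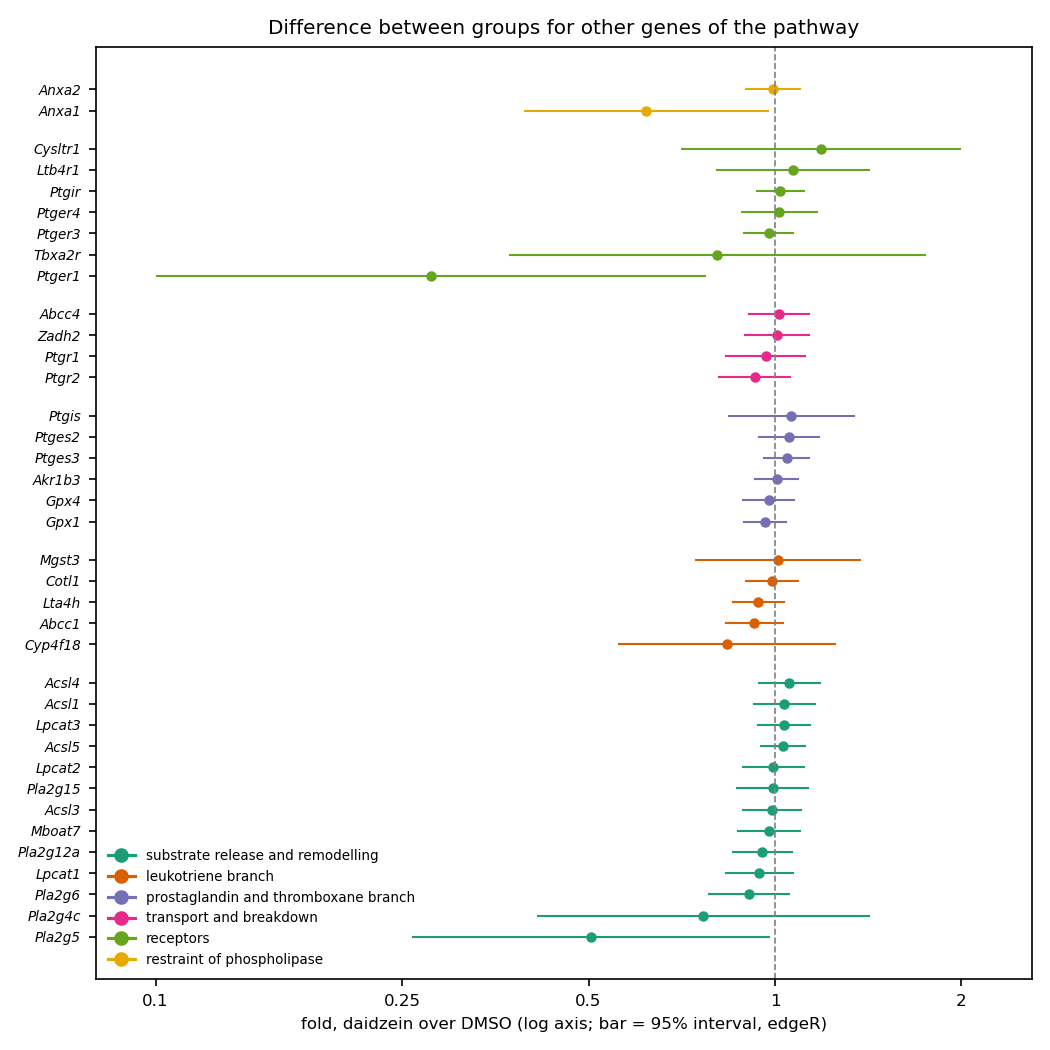
Fold of daidzein over DMSO (log axis) for the 37 other pathway genes with enough reads to test, coloured by role, with 95% intervals from edgeR as bars and a dashed line at 1. Of the 37 folds, 15 lie above 1 and 22 below, and Ptger1, Pla2g5 and Anxa1, at 1 to 44 reads per library, are the 3 whose intervals stay below 1 before adjustment over all genes. Ptger1 passed the filter on low counts only through the DMSO libraries, where it was higher.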

How the data were processed

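RNA sequencing of 4 libraries was used, grouped by title. Tools listed without roles in the submitters' processing notes are HISAT2 2.0.1, HTSeq 0.6.1 and DESeq2, beside mm9 as build. The deposited coordinates are those of GRCm38: of 55141 genes matched by identifier to GENCODE M21, 99.6% had the same start. The deposited counts are whole numbers of reads per gene, not normalized, as the values show, and stand beside the authors' FPKM. All 65326 FPKM values with a read lay within 0.01 of count over exonic length and library total. Tests on the counts used edgeR 4.0.16 under R 4.3.3 (TMM, default filterByExpr, quasi-likelihood F test, Benjamini-Hochberg adjusted p of 0.05 over 11700 genes), a fit checked on simulated data. FPKM served to compare levels between genes. Untested genes are given as reads with exact intervals at 95% and a floor of 3 counts. Chi-square per degree of freedom between libraries was 2.23 to 4.81, so none was a duplicate.

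Alternatives were DESeq2 1.42.0, limma 3.58.1 on log2(FPKM + 1) and log2(FPKM + 0.1), other scalings and filters, robust estimation, the replicate number as a block and each library left out. Copies were searched with blastn 2.17.0. Named genes are the 10 members, per role up to 4 tested genes of the highest FPKM, receptors with at least 10 reads in a library, the 3 genes closest to Alox5ap, and genes overlapping a member where reads bear on it. The members and lists were chosen with earlier results of these data known.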

Additional observations from a re-analysis of the deposited data

How the results depend on the processing

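The count of genes called over all genes, 2, was 2 with RLE size factors, with library totals and with robust estimation, 11 without a filter on low counts, 1 with a filter of 5 CPM, 1 by DESeq2, and 0 by limma on log2(FPKM + 1) and on log2(FPKM + 0.1). The replicate number as a block gave 27. Leaving out DMSO replicate 1 gave 4, DMSO replicate 2 gave 12, daidzein replicate 1 gave 11 and daidzein replicate 2 gave 17. No label gives same-numbered libraries a shared source, and over genes the deviations of the 2 pairs correlated at 0.092, so the samples were treated as unpaired. By chi-square per degree of freedom the same-numbered libraries were nevertheless the most alike (2.23 for replicates 2 and 3.51 for replicates 1, against 4.17 and 4.38 within groups). In every one of these settings 0 members and 0 genes of the wider list were called, with an adjusted p of the members of at least 0.814. The median log2 difference of the 5 tested members, -0.027, lay between -0.093 (DMSO replicate 2 left out) and -0.0075 (DMSO replicate 1 left out). With single libraries left out, the log2 difference of Ltc4s, -0.0096, ranged from -0.11 to 0.099, with 0.016 when daidzein replicate 1 was dropped, and that of Alox5ap, -0.053, from -0.11 to 0.0056. The other 60 of 63 recomputed log2 differences of members kept their direction, which says little for values this near 0. For Pla2g4a the log2 difference, 0.089, ranged from 0.022 (DMSO replicate 1 left out) to 0.16 (DMSO replicate 2 left out). With single libraries left out, the read ratio of Ptgs2, 1.17, ranged from 0.450 (daidzein replicate 1 left out) to 2.40 (DMSO replicate 1), that of Alox5, 0.933, from 0.60 (daidzein replicate 1) to 1.44 (DMSO replicate 1), and that of Alox15, 1.87, from 0.958 (DMSO replicate 1) to 3.88 (daidzein replicate 2), so these 3 turned direction. That of Ptges, 0.467, ranged from 0.225 (daidzein replicate 1) to 0.727 (daidzein replicate 2) and that of Tbxas1, 0.653, from 0.360 (daidzein replicate 1) to 0.970 (daidzein replicate 2). All 18 values lay within the counting intervals, and a ratio with 0 reads in a group was not computed. The cause of these changes was not tested. Depth limits Hpgds, Ltc4s and the 5 untested members.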
